A study of Mus musculus with 9 samples.

Results

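Mitochondrial Ser-GCT tRNA fragments are the serum reads that aligned to mt-Ser-GCT, the mature mitochondrial serine tRNA with anticodon GCT, and to no other tRNA reference. They were picked by that alignment rule, each read name counted once with the read count it carries. The rule gave 14206 reads of 732 distinct sequences, out of 555585 reads and 41240 distinct sequences on tRNA references in the 9 libraries. The tRNA was chosen for a closer description because fragments of it were already known to differ between the groups in these data. Its levels in the groups are therefore described with no test.

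The libraries are small RNA from mouse blood serum taken at week 20 in a study of atherosclerosis, the build-up of fatty plaque in arteries. Mice on a high fat diet with SalB (salvianolic acid B, a plant phenolic from Salvia miltiorrhiza) gave 3 libraries, mice on the high fat diet alone gave 3, and mice on a normal diet gave 3. No genotype, allele, dose, sex or age beyond the week is given in the sources used here, and nothing in the labels says that the replicates come from different animals. The spread that the p-values rest on may therefore be technical. The titles of the normal diet libraries carry a mouse strain name that the other titles lack, so diet or treatment and strain cannot be told apart in comparisons with normal diet. The files hold only reads on tRNA references, so no marker of a cell type could be read.

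This tRNA reads the AGC and AGU serine codons on mitochondrial ribosomes. It is an unusual tRNA because it has no D-arm, so that its anticodon stem stands close to the acceptor stem and the anticodon lies nearer to the 5′ end than in other tRNAs. Its gene lies in a cluster with those of mitochondrial tRNA His and a tRNA Leu, on the same strand, and its ends are made by cleavage of a long transcript. Cleavage of tRNAs in the anticodon loop is known to give fragments that are found in serum.

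The reads without a mismatch together cover all 62 bases of the reference, which includes the CCA tail that is added after transcription. The gene lies on the mitochondrial chromosome, and its coordinates are not used here because the sequence was rebuilt from the reads. It is shown first, 5′ to 3′, with the anticodon in capitals, because the ends of the fragments are read against it. Below it stand the most abundant fragments without a mismatch that end in or near the anticodon and at the end of its stem, with the anticodon bases they hold in capitals.
Ser-GCT, positions 1 to 62: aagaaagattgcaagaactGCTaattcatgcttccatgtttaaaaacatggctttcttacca
end 19: aagaaagattgcaagaact
end 20: aagaaagattgcaagaactG
end 21: aagaaagattgcaagaactGC
end 22: aagaaagattgcaagaactGCT
end 31: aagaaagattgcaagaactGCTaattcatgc

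Positions are counted from 1 at the 5′ end of the reference. The anticodon is at positions 20 to 22, in the middle of a loop of 7 bases at positions 18 to 24. Positions 11 to 17 and 25 to 31 flank this loop and can form 6 of 7 Watson-Crick pairs, so they are called the anticodon stem here. A fragment that ends at 19 stops just before the anticodon, one that ends at 21 lacks its last base, and one that ends at 31 holds the whole anticodon stem and loop.

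The share of tRNA reads that came from Ser-GCT was high in the SalB libraries and low in both other groups. It was 4.31%, 3.92% and 4.60% in SalB replicates 1, 2 and 3. In the high fat diet libraries it was 1.34%, 1.72% and 1.42%, and in the normal diet libraries 1.12%, 1.32% and 0.844%. The SalB libraries did not overlap with the others, and the high fat diet libraries all lay above the normal diet libraries, the nearest pair by a small margin. The means were 4.28 ± 0.340% with SalB, 1.49 ± 0.200% on high fat diet and 1.10 ± 0.241% on normal diet (SD, n = 3 each), so the SalB mean was 2.87 times that of high fat diet. In serum, as in other bulk samples, more cells shedding RNA and more RNA shed per cell cannot be told apart, and a share also moves with the other tRNA reads.

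Depth and scaling bear on these levels. The libraries held 62258, 156333 and 40134 tRNA reads with SalB, 55465, 28191 and 44415 on high fat diet, and 43007, 31058 and 94724 on normal diet. SalB replicate 2 stands apart, since 42.0% of its tRNA reads lay on the precursor of 1 nuclear tRNA, Leu-CAG-3-1, against 2.55% and 0.0573% in SalB replicates 1 and 3 and at most 0.107% in the other groups. Without those precursor reads, Ser-GCT made up 4.42%, 6.76% and 4.60% of the rest in the SalB libraries. After scaling by trimmed means, the level was 48691, 103847 and 47268 normalised CPM (counts per 1000000 tRNA reads after scaling) with SalB, 10812, 14021 and 11460 on high fat diet, and 9076, 11573 and 7266 on normal diet. SalB replicate 2 was the highest by this measure and the lowest of its group by share of reads. The high fat diet and normal diet libraries overlapped by this measure, with normal diet replicate 2 above high fat diet replicates 1 and 3.

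On the scaled level, the log2 fold change of mt-Ser-GCT as a family (all its fragments summed, limma-voom over all 9 libraries) was 2.40 (SE 0.35) for SalB against high fat diet, 0.42 (SE 0.39) for high fat diet over normal diet and 2.82 (SE 0.35) for SalB over normal diet. With total tRNA reads in place of trimmed means, the values were 1.53, 0.47 and 2.00, and the median of all 103 tested families for SalB against high fat diet was -0.27, against 0.62 with trimmed means. The fold change of Ser-GCT was above the median family under both scalings, and its size depended on the scaling. The SE depended on the libraries fitted: with only those groups fitted, high fat diet over normal diet was 0.48 (SE 0.18).

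**Figure D1:**
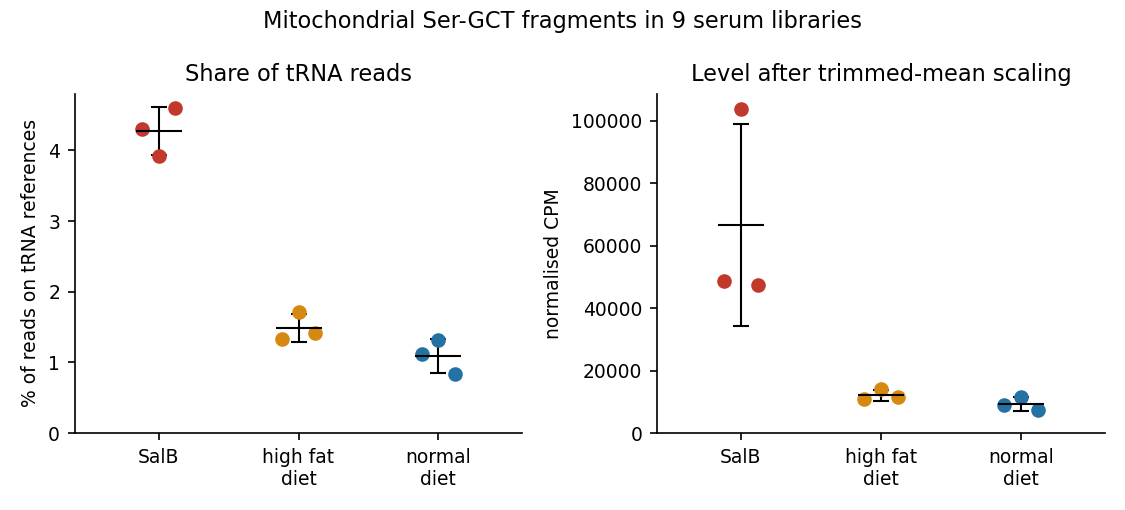
Level of mitochondrial Ser-GCT fragments in each library: at left the percent of reads on tRNA references, at right normalised CPM after trimmed-mean scaling. Points are libraries, horizontal bars are means and whiskers are SD (n = 3 each). The SalB libraries sit between 3.92% and 4.60% and lie above all libraries of the other groups in both panels, where SalB replicate 2 is the high point at right.

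Nearly all Ser-GCT reads were 5′ fragments. Of the 14206 reads, 13597 (95.7%) started at position 1, 534 (3.76%) at positions 2 to 6 and 75 (0.528%) later. The share that started at position 1 was 96.6%, 95.9% and 95.3% with SalB, 95.1%, 95.5% and 95.7% on high fat diet, and 90.7%, 96.1% and 95.7% on normal diet. The groups overlapped, and an exact permutation test over the 280 partitions of the libraries did not pass (p = 0.704, adjusted over 4 measures of composition 0.704). Normal diet replicate 1 is the low value. Of the 534 reads that started at positions 2 to 6, 332 (62.2%) ended at position 21. Only 47 reads reached past position 45, or 0.331%, so the 3′ part of the tRNA was scarcely read.

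The share was higher than in the pool of the other mitochondrial tRNAs. Over all libraries, Ser-TGA came next among the 22 with 77.5% of its 1496 reads, and 95.7% was the highest. As a mean of the 9 libraries, 95.2 ± 1.74% of its reads started at position 1, against 22.7 ± 15.9% of the reads of the other 21 mature mitochondrial tRNAs pooled. It was higher in 9 of 9 libraries, by 72.4 percentage points on average (exact two-sided sign-flip permutation test, p = 0.00391, the smallest that 9 pairs allow, and 0.00456 adjusted over 7 comparisons with other reads). The pooled value itself was 3.23% with SalB, 26.9% on high fat diet and 38.1% on normal diet. Mitochondrial His-GTG gave 18109 of the 22058 pooled reads, and 0.127% of them started at position 1. Without His-GTG the others stood at 47.8 ± 14.3%, and Ser-GCT was again higher in 9 of 9 libraries (sign-flip permutation p = 0.00391). The other mitochondrial serine tRNA, Ser-TGA, which reads the UCN codons and has a D-arm, stood at 76.0 ± 18.5% and lay below Ser-GCT in 8 of 9 libraries (sign-flip permutation p = 0.0156). By group, Ser-TGA stood at 61.9 ± 23.4% with SalB, 72.8 ± 7.22% on high fat diet and 93.2 ± 1.44% on normal diet (SD, n = 3 each), where Ser-GCT stood at 95.9 ± 0.641%, 95.4 ± 0.287% and 94.2 ± 3.03% in the same order. On normal diet the difference was thus within the spread of the libraries. The comparisons without His-GTG and with Ser-TGA were chosen after the values were seen.

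The end positions of the 5′ fragments formed a ladder with its main steps in the anticodon loop and at the end of the anticodon stem. The order of the steps differed by group. With SalB the most common ends were at 19, 21 and 22, with group means of 21.5%, 20.7% and 14.6% of the reads starting at position 1. On high fat diet they were at 21, 20 and 31, with 19.9%, 13.3% and 10.9%, and on normal diet at 21, 31 and 40, with 24.2%, 16.9% and 6.90%. The 5′ reads behind these shares numbered 2590, 5880 and 1759 with SalB, 705, 462 and 603 on high fat diet, and 438, 395 and 765 on normal diet. The mean end position was 25.3, 23.6 and 24.6 with SalB, 26.2, 25.8 and 26.9 on high fat diet, and 27.7, 26.9 and 28.5 on normal diet. The fragments were thus shortest with SalB, next on high fat diet and longest on normal diet, with no overlap between groups, although high fat diet replicate 3 and normal diet replicate 2 were close together.

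This difference in end position passed (exact permutation over 280 partitions, p = 0.00357, the smallest possible, and 0.0143 adjusted over 4 measures). The high level of the fragment ending at 19 with SalB was already known from these data, and ends at 19 lower the mean. The test is therefore not independent support for shorter fragments with SalB. The means were 24.5 ± 0.843 with SalB, 26.3 ± 0.510 on high fat diet and 27.7 ± 0.796 on normal diet (SD, n = 3 each). Each pair of groups had an exact p of 0.1, the smallest that 3 against 3 allows. The call was lost without high fat diet replicate 1 (exact permutation adjusted p = 0.0571). It was also lost with each distinct sequence counted once, where the difference between SalB and high fat diet was -0.46, against -1.79 by reads (exact permutation adjusted p = 0.0810). Reads stop at 40 bases in all files, so longer 5′ fragments, if present, are cut there or missing. Reads ending at 40 made up 2.45% to 4.75% of the 5′ reads with SalB, 4.55% to 8.62% on high fat diet and 4.05% to 8.68% on normal diet.

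**Figure D2:**
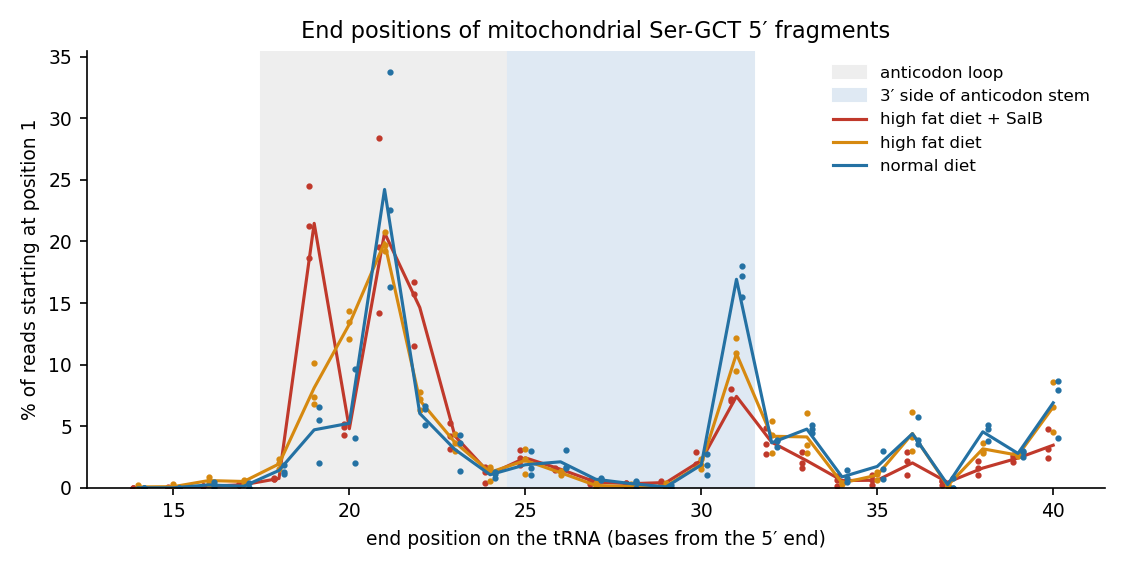
End positions of the 5′ fragments: the x axis is the position of the last base on the tRNA, the y axis the percent of reads starting at position 1, lines are group means and points are libraries. Shading marks the anticodon loop (positions 18 to 24) and the 3′ side of its stem (25 to 31). The steps at 19 and 22 are highest with SalB, and the step at 31 is highest on normal diet.

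Position by position, 13 end positions held at least 2% of the 5′ reads, and each was tested in the same way with adjustment over the 13. These tests were added after the ladder was seen. Ends at 19, 22 and 31 passed, also with mismatch-free reads only and with reads of up to 39 bases. Ends just before the anticodon, at 19, made up 21.2%, 24.5% and 18.6% of the 5′ reads with SalB, 7.38%, 10.2% and 6.80% on high fat diet, and 2.05%, 6.58% and 5.49% on normal diet (exact permutation adjusted p = 0.0232). No group overlapped with another at this step, with SalB the highest and normal diet the lowest. The high level of this fragment with SalB was already known from these data, so the test is not independent support for it.

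Ends at 22, the last base of the anticodon, made up 15.7%, 16.7% and 11.5% with SalB, 7.23%, 7.79% and 6.30% on high fat diet, and 6.39%, 5.06% and 6.67% on normal diet (exact permutation adjusted p = 0.0464). The SalB libraries lay above both other groups, which overlapped with each other. This call was lost when any library of high fat diet or normal diet was left out, with adjusted p from 0.0696 to 0.139. It was kept at 0.0464 without any SalB library.

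Ends at 31, the last base of the stem, went the other way. They made up 7.07%, 7.19% and 8.02% with SalB, 12.2%, 9.52% and 10.9% on high fat diet, and 15.5%, 17.2% and 18.0% on normal diet (exact permutation adjusted p = 0.0232). The 3 groups did not overlap, in the order normal diet, high fat diet, SalB from high to low. Among reads with no mismatch the shares were 3.62%, 2.86% and 7.76% with SalB, 11.9%, 11.7% and 10.2% on high fat diet, and 16.6%, 17.9% and 20.5% on normal diet, again with no overlap. The calls at 19 and 31 were kept without any 1 of the 9 libraries, with adjusted p up to 0.0464. Shares at the steps of 1 ladder sum to 100%, so a higher share at 1 step lowers the others.

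Ends at 20, the first base of the anticodon, were the step at which the high fat diet libraries stood apart. They made up 4.29%, 5.15% and 4.95% with SalB, 14.3%, 12.1% and 13.4% on high fat diet, and 2.05%, 9.62% and 4.05% on normal diet. The high fat diet libraries lay above all others, but the test over the 3 groups did not pass after adjustment (exact permutation adjusted p = 0.116). The levels of the fragment ending at 20 were already known from these data, so neither the separation nor the test is independent support. The most common end in the pooled reads, at 21, overlapped in all groups, at 14.2% to 28.4% with SalB, 19.2% to 20.8% on high fat diet and 16.3% to 33.8% on normal diet (exact permutation adjusted p = 0.8). The other 8 positions had adjusted p from 0.241 to 0.8.

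Summed by structure, ends in the loop made up 61.7%, 73.6% and 67.7% of the 5′ reads with SalB, 55.6%, 57.8% and 52.6% on high fat diet, and 47.9%, 50.6% and 38.8% on normal diet. Ends in the 3′ side of the stem made up 16.1%, 14.3% and 14.2% with SalB, against 17.3%, 15.4% and 17.4% on high fat diet and 21.5%, 23.5% and 26.7% on normal diet. Ends past the stem made up 21.9%, 11.6% and 17.7% with SalB, 25.7%, 25.1% and 29.4% on high fat diet, and 30.1%, 25.8% and 33.9% on normal diet. The loop share did not overlap between any pair of groups. These sums were formed after the ladder was seen, so no test of them is given.

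**Figure D3:**
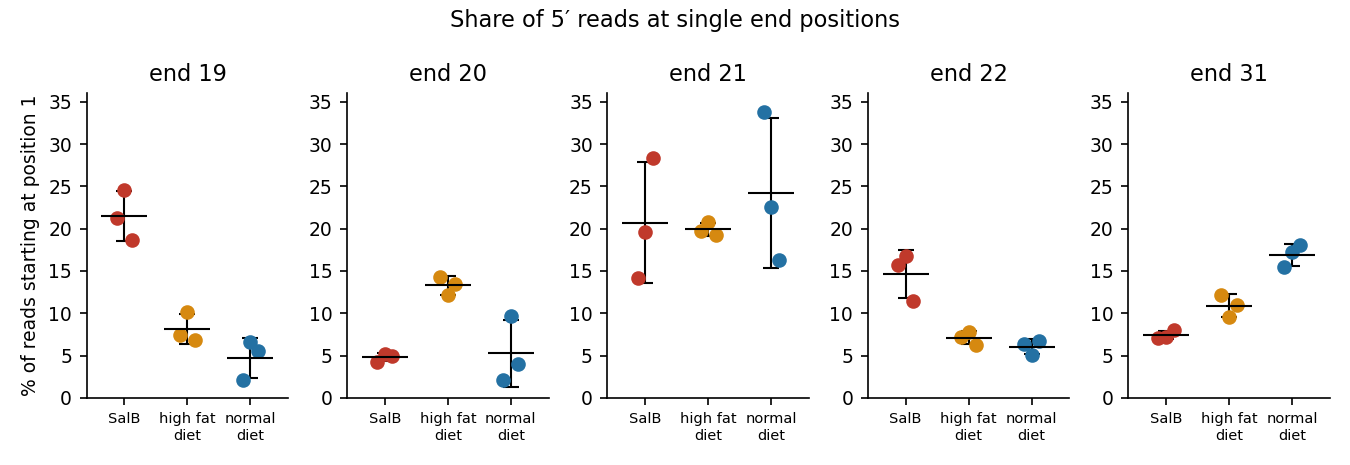
Share of the 5′ reads that end at positions 19, 20, 21, 22 and 31, in percent, by group. Points are libraries, horizontal bars are means and whiskers are SD (n = 3 each). SalB libraries are highest at 19 and 22 and lowest at 31, and high fat diet libraries are highest at 20.

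Read length follows from this, since nearly all reads share their first base. The median length was 22, 21 and 21 bases with SalB, 22, 22 and 23 on high fat diet, and 23, 24 and 31 on normal diet. Reads of up to 24 bases made up 62.8%, 74.9% and 69.2% with SalB, 57.6%, 60.7% and 54.0% on high fat diet, and 51.6%, 50.9% and 40.9% on normal diet. Normal diet replicate 3 was the one library in which the median fragment reached the end of the anticodon stem.

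The steps also differed in level. Of the 732 sequences, 30 passed the filter on low counts, with 78.2% of the Ser-GCT reads, while 702 did not pass, among them 386 that were read a single time. The most abundant sequence that did not pass had 143 reads. Of the 30, 29 started at position 1, 16 had no mismatch and 14 had a mismatch at the last base. The fragment ending at 19 had a level of 6590, 17771 and 6017 CPM with SalB, 394, 666 and 491 on high fat diet, and 94.0, 479 and 309 on normal diet. Its log2 fold change was 4.15 (SE 0.53) for SalB against high fat diet, and 1.08 (SE 0.64) for high fat diet over normal diet. SalB libraries lay above all others, and normal diet replicate 2 lay within the range of the high fat diet libraries.

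The fragment ending at 20 differed in pattern. It stood at 1289, 3574 and 1792 CPM with SalB, 1138, 1246 and 982 on high fat diet, and 113, 788 and 191 on normal diet. All high fat diet libraries lay above the normal diet libraries, and SalB replicate 1 lay just above the high fat diet libraries, with log2 fold changes of 0.86 (SE 0.50) for SalB against high fat diet and 2.28 (SE 0.57) for high fat diet over normal diet.

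The fragment ending at 21 stood at 3794, 11096 and 6760 CPM with SalB, 1007, 1304 and 891 on high fat diet, and 1804, 1098 and 682 on normal diet. SalB libraries were above the others, which overlapped, and the log2 fold changes were 2.65 (SE 0.45) and -0.06 (SE 0.48) for the same comparisons. The fragment ending at 22 stood at 4212, 9978 and 3431 CPM with SalB, 394, 521 and 473 on high fat diet, and 188, 282 and 273 on normal diet (log2 fold changes 3.52, SE 0.42, and 0.89, SE 0.50). The 3 groups did not overlap for this fragment. The fragment ending at 31 stood at 944, 1711 and 2125 CPM with SalB, 642, 840 and 618 on high fat diet, and 770, 1126 and 918 on normal diet. Here SalB replicate 1 lay within the range of normal diet, and the log2 fold changes were 1.12 (SE 0.36) and -0.41 (SE 0.36). The fragment ending at 23, the base after the anticodon, stood at 1434, 4337 and 1178 CPM with SalB, 306, 348 and 291 on high fat diet, and 94.0, 451 and 200.1 on normal diet. SalB libraries lay above all others, which overlapped, with a log2 fold change of 2.62 (SE 0.55) against high fat diet.

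Fragment by fragment, limma-voom over all 733 tested fragments called 23 of the 30 higher with SalB than on high fat diet, where 18.4% of all tested fragments were called higher, and 0 lower, where 15.0% were. The SalB and high fat diet libraries did not overlap for 28 of the 30, all higher with SalB (26.5% of all fragments). The median log2 fold change of the 30 was 2.46, with a range from 0.74 to 4.48, against -0.07 for all 733, and with total counts the medians were 1.58 and -0.999. The count of 23 was 17 of 30 with total counts and 16 of 29 tested without high fat diet replicate 1. It was 15 of 21 tested without SalB replicate 1 and 14 of 22 tested without SalB replicate 2. For SalB against normal diet, 29 of the 30 were called higher (20.9% of all) and 0 lower (16.8% of all), with a median of 2.68 against -0.06. That count was 20 of 30 with total counts and 19 of 22 tested without SalB replicate 2. Between high fat diet and normal diet, limma-voom called 0 of the 30 and 0 of the 733 (0%). At an unadjusted p under 0.05 there were 3 of the 30, all higher, and 91 of the 733, and the medians were 0.41 and -0.02. Since the tRNA was picked from these contrasts and both SalB comparisons share libraries, these counts are given as a description only. The filter kept fragments that were abundant in as few as 3 libraries, and some of the 30 passed through the SalB libraries alone. With only the high fat diet and normal diet libraries, 15 Ser-GCT fragments passed. Such a filter favours fragments that are higher with SalB, so the counts and medians above are not support for a difference.

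Many Ser-GCT reads did not match the reference at every base, and most of these mismatches were at the last base of the read. Reads with any mismatch made up 44.3%, 39.5% and 38.9% with SalB, 47.4%, 45.5% and 44.1% on high fat diet, and 42.9%, 42.6% and 35.4% on normal diet. The groups overlapped, and the test did not pass (exact permutation p = 0.132, adjusted 0.176). With each distinct sequence counted once, the difference between SalB and high fat diet turned to 7.16 percentage points, against -4.72 by reads, and the test over the 3 groups passed (exact permutation adjusted p = 0.00714). Mismatches away from the last base made up 8.69%, 7.13% and 8.56% with SalB, 11.3%, 11.8% and 12.2% on high fat diet, and 11.0%, 8.27% and 8.01% on normal diet. The high fat diet libraries lay above all others, at an exact permutation p of 0.025 and an adjusted p of 0.05, which is not under the threshold. With each distinct sequence counted once, the difference between SalB and high fat diet turned to 13.3 percentage points, against -3.65 by reads, and the test passed (exact permutation adjusted p = 0.00714). Distinct sequences numbered 273, 374 and 233 with SalB, 155, 119 and 132 on high fat diet, and 119, 89 and 143 on normal diet. They came from 2682, 6130 and 1846 reads with SalB and 741, 484 and 630 on high fat diet. On normal diet they came from 483, 411 and 799 reads. Whether shares of distinct sequences move with the number of reads was not tested.

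The last-base mismatch share was higher in Ser-GCT than in other tRNA reads. It was 32.6 ± 2.69% over the 9 libraries, against 18.4 ± 3.60% in all other tRNA reads, and it was higher in 9 of 9 libraries (sign-flip permutation p = 0.00391, adjusted 0.00456). Among reads starting at position 1, it was 33.1 ± 2.78% in Ser-GCT, against 17.6 ± 4.17% in other mitochondrial tRNAs and 20.7 ± 4.67% in nuclear tRNAs, again higher in 9 of 9 libraries for each. Away from the last base the order was the opposite, with 9.66 ± 1.90% in Ser-GCT and 17.1 ± 3.31% in all other tRNA reads, lower in 9 of 9 libraries (sign-flip permutation adjusted p = 0.00456 for each of these comparisons). Single mitochondrial tRNAs varied, and Leu-TAA had 50.8% last-base mismatches over its 331 reads. These comparisons were chosen after the values were seen. By group the last-base share was 32.8 ± 2.65% with SalB, 33.9 ± 2.07% on high fat diet and 31.2 ± 3.50% on normal diet (SD, n = 3 each), so the spread within groups was as large as the differences between them.

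The base read at a mismatched last position was mostly A. Of 4647 such reads, 55.9% ended in A, 19.8% in T, 12.8% in C and 11.5% in G. Where the reference base at the end is itself A, 7.81% of the 5′ reads had a mismatch, against 42.5% where it is C, 33.9% where it is T and 21.8% where it is G. A misread last base and a base added to a shorter fragment cannot be told apart in these files. By group, A made up 55.9%, 53.7% and 49.4% of the mismatched ends with SalB, 66.3%, 63.8% and 63.7% on high fat diet, and 59.1%, 64.5% and 59.4% on normal diet. The SalB libraries were the lowest, and C stood at 15.5%, 15.0% and 13.5% there, against 7.49%, 6.75% and 4.48% on high fat diet and 3.90%, 2.13% and 11.0% on normal diet.

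In the names of the substitutions, the base of the reference comes first, then the position, then the base found in the read. The most common were C21T, C21A, C31A, T19C and T22A, with 625, 533, 363, 304 and 269 reads, of which 84.2% (T19C) to 98.9% (C31A) carried the change at the last base. The sequences of the 3 most abundant are shown with the substituted base in capitals, because they are the same steps of the ladder with another last base.
C21T: aagaaagattgcaagaactgT
C21A: aagaaagattgcaagaactgA
C31A: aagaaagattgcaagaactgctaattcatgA
Of the 5′ reads ending at 21, C21T made up 16.9%, 21.8% and 20.4% with SalB, 12.2%, 15.6% and 19% on high fat diet, and 18.9%, 23.6% and 16.8% on normal diet, so the groups overlapped. C21A made up 18.5%, 14.5% and 19.6% with SalB, 30.9%, 25% and 30.2% on high fat diet, and 9.46%, 28.1% and 20.0% on normal diet. High fat diet libraries lay above SalB libraries for C21A, while normal diet libraries were spread over the whole range. As a level, the C21T fragment stood at 1126, 4252 and 2612 CPM with SalB, 248, 435 and 400.2 on high fat diet, and 526, 591 and 191 on normal diet. The C21A fragment stood at 1235, 2829 and 2509 CPM with SalB, 627, 695 and 637 on high fat diet, and 263, 704 and 227 on normal diet. SalB libraries were the highest for each, with log2 fold changes against high fat diet of 2.73 (SE 0.57) for C21T and 1.65 (SE 0.43) for C21A.

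C31A was unevenly spread over the SalB libraries. It made up 42.1% and 54.8% of the 5′ reads ending at 31 in SalB replicates 1 and 2, but 10.6% in SalB replicate 3. On high fat diet it made up 10.5%, 9.09% and 10.6%, and on normal diet 5.88%, 10.3% and 2.90%. SalB replicate 3 thus lay at the level of the high fat diet libraries. In reads, C31A at the last base had 77, 232 and 15 with SalB, 9, 4 and 7 on high fat diet, and 4, 7 and 4 on normal diet. T22A made up 14%, 12.5% and 10.9% of the 5′ reads ending at 22 with SalB, 25.5%, 13.9% and 15.8% on high fat diet, and 46.4%, 40% and 23.5% on normal diet. SalB libraries lay at the low end for T22A, with SalB replicate 1 just above high fat diet replicate 2. T19C made up 12%, 9.36% and 10.7% of ends at 19 with SalB, 13.5%, 6.38% and 7.32% on high fat diet, and 22.2%, 3.85% and 9.52% on normal diet, with all groups overlapping. The normal diet libraries had 9, 26 and 42 such ends, so counting error is large there.

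**Figure D4:**
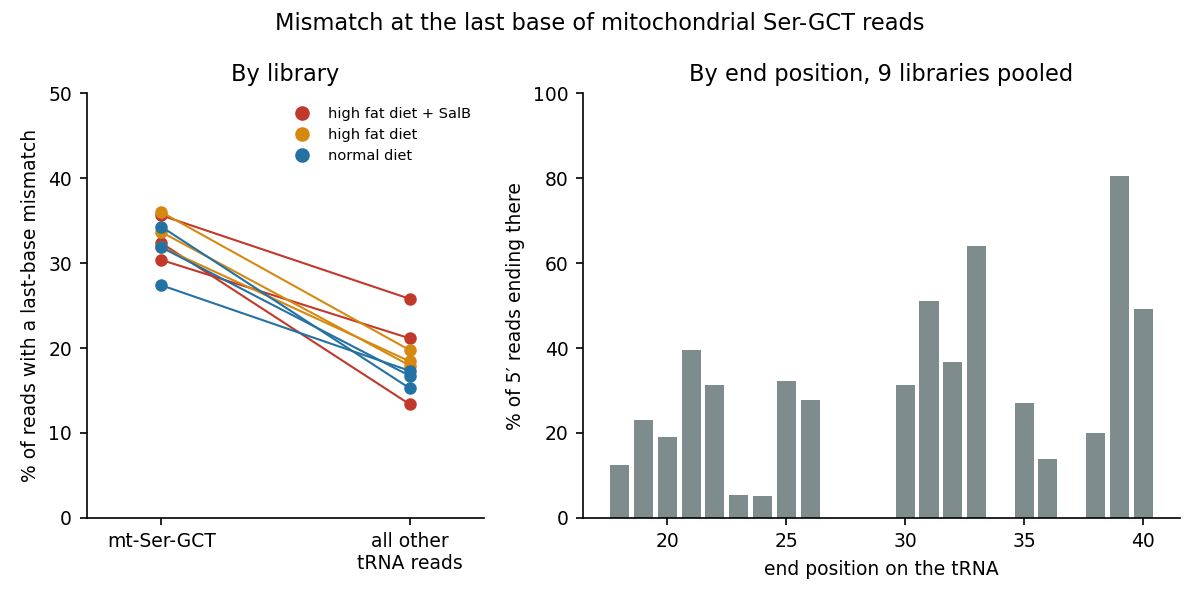
Mismatch at the last base. At left, each line joins the percent of Ser-GCT reads and of all other tRNA reads with a last-base mismatch in 1 library, coloured by group, and Ser-GCT is higher in 9 of 9 libraries. At right, the percent of 5′ reads with a last-base mismatch by end position, over all libraries pooled, for positions with at least 100 reads, which runs up to 80.7% at position 39.

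The other mitochondrial tRNAs were read on the same scale. Of the other 21 mature mitochondrial tRNAs, 10 passed the filter. For SalB against high fat diet, 5 of these 10 rose and 0 fell by limma-voom over 103 families, of which 30.1% were called higher and 3.88% lower. The 5 were His-GTG, Gly-TCC, Thr-TGT, Val-TAC and Leu-TAA, with log2 fold changes of 4.40, 2.16, 1.80, 1.21 and 1.08 (limma-voom adjusted p = 8.06e-07, 0.000977, 0.0205, 0.0180 and 0.0252). The count was 2 with total counts, without a filter or with only the groups compared, and it was 3, 2 and 2 without high fat diet replicates 1, 2 and 3. With total counts, 4 of the 10 changed sign (Asn-GTT, Gln-TTG, Glu-TTC and Ser-TGA), none of them among the 5 called, and the median of all families moved to -0.27, against 0.62 with trimmed means. For SalB against normal diet 5 of 10 rose and 0 fell (31.1% and 5.83% of all families). That count was 2 with total counts, 3 of 21 without a filter, 2 without normal diet replicate 1, 3 without normal diet replicate 3 and 3 of 9 without high fat diet replicate 2. Between high fat diet and normal diet, limma-voom called 0 of 10 and 0 of 103 families (0%). With only those groups fitted, it called 6 of 93 families, with 0 of the 8 other mitochondrial tRNAs tested.

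By scaled level, both neighbours of Ser-GCT in its gene cluster were highest in the SalB libraries, while the other serine tRNA overlapped between groups. His-GTG, which lies directly before Ser-GCT in the transcript, stood at 10.4%, 3.60% and 10.9% of tRNA reads with SalB, 0.663%, 0.624% and 0.599% on high fat diet, and 0.563%, 0.695% and 0.393% on normal diet. As with Ser-GCT, all SalB libraries were above the others. Leu-TAG, which lies directly after Ser-GCT, did not pass the filter, with 10, 15 and 21 reads with SalB, 5, 1 and 5 on high fat diet, and 3, 4 and 4 on normal diet. Its level was 182, 254 and 538 CPM with SalB, 73.0, 29.0 and 90.9 on high fat diet, and 56.4, 113 and 36.4 on normal diet. All SalB libraries were above the others by this level, on few reads. By share of tRNA reads, SalB replicate 2 (0.00959%) lay below high fat diet replicate 3 (0.0113%) and normal diet replicate 2 (0.0129%). Ser-TGA had 93, 253 and 122 reads with SalB, 175, 106 and 124 on high fat diet, and 213, 197 and 213 on normal diet. As a share of tRNA reads it stood at 0.149%, 0.162% and 0.304% with SalB, 0.316%, 0.376% and 0.279% on high fat diet, and 0.495%, 0.634% and 0.225% on normal diet. Its log2 fold change for SalB against high fat diet was 0.12 (SE 0.44, limma-voom adjusted p = 0.839), and it was -0.71 with total counts.

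**Figure D5:**
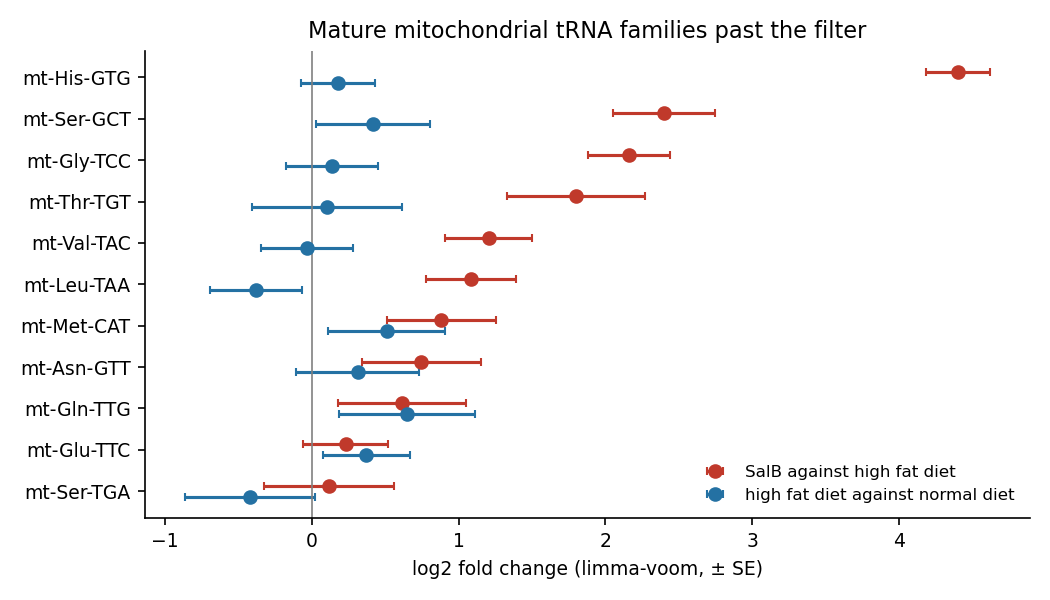
Log2 fold change (limma-voom, bars are SE) of the 11 mature mitochondrial tRNA families past the filter, for SalB over high fat diet and for high fat diet over normal diet. His-GTG and Ser-GCT have the highest values for SalB, at 4.40 and 2.40, and Ser-TGA the lowest at 0.12. Values of SalB against high fat diet depend on the scaling, and Asn-GTT, Gln-TTG, Glu-TTC and Ser-TGA change sign with total counts.

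By pattern over the 9 libraries, the families nearest to Ser-GCT were mitochondrial Gly-TCC, nuclear Phe-GAA and the precursors of nuclear Ile-AAT. Likeness was measured as the root mean square difference of log2 levels centred over the libraries, which was 0.40, 0.41 and 0.45, against a median of 1.06 over 102 families. Gly-TCC stood at 1271, 1728 and 1844 CPM with SalB, 263, 406 and 418 on high fat diet, and 357, 310 and 291 on normal diet. Phe-GAA stood at 1906, 2575 and 1767 CPM with SalB, 496, 348 and 327 on high fat diet, and 489, 619 and 309 on normal diet. Both had all SalB libraries above the others. The Ile-AAT precursors stood at 526, 728 and 282 CPM with SalB, 161, 203 and 109 on high fat diet, and 56.4, 113 and 81.8 on normal diet, again with SalB libraries the highest. These families were picked for their likeness to Ser-GCT over the same libraries, so their high values with SalB follow from that choice.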

How the data were processed

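Per the labels' protocols, total RNA isolated with TRIzol went into a small RNA library kit with ligated adapters, PCR and gel selection, read by Illumina sequencing. Per the submitters' processing notes, FastQC, cutadapt, Bowtie, edgeR and mm10 were used, without versions. The deposited files are alignment lists of reads of 14 to 40 bases with at most 1 mismatch, in which the count of each sequence stands in its read name. Column 4, the deposited start position, was counted from 0.

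Counts were fitted with limma-voom (limma 3.58.1, R 4.3.3) over all 9 libraries, with trimmed-mean scaling and Benjamini-Hochberg adjustment at 0.05. The scaling factors were computed on the fragments past the filter and applied to the totals of all tRNA reads. Features entered with at least 10 reads, scaled to the median library of 44415 tRNA reads, in 3 or more libraries, and 15 reads in all. This left 733 fragments and 103 of 326 families, precursors apart. The lowest scaling factor was 0.378, in SalB replicate 2, and the highest 1.24. In simulated data, 200 of 733 fragments were changed 4-fold. For SalB against high fat diet, 72.5% of them were recovered and 3.97% of the calls were false. These values describe the simulated data and need not hold for these libraries. Shares were tested by exact permutation in Python 3.11.15. Libraries of a group differed beyond sampling noise (chi-square per degree of freedom 2.70 to 48.7).

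The tRNA, lists and tests were chosen with earlier results of these data known, among them the levels of the fragments ending at 19 and 20. The fragments named are the most abundant, end positions hold at least 2% of the 5′ reads, and the families named are cluster neighbours, Ser-TGA and the 3 nearest in pattern. Other scalings, filters, read sets and fits, and each library left out, were tried as alternatives.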

Additional observations from a re-analysis of the deposited data

Results flagged for a closer look

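Reads on the precursor reference of mitochondrial Ser-GCT lie outside the comparisons above, and in each SalB library they were above the level in all normal diet libraries. They stood at 449.7, 95.9 and 374 per 1000000 tRNA reads with SalB (28, 15 and 15 reads), 90.1, 35.5 and 135 on high fat diet (5, 1 and 6 reads), and 46.5, 32.2 and 21.1 on normal diet (2, 1 and 2 reads). SalB replicate 2 lay within the range of the high fat diet libraries. All 75 reads also aligned to the precursor of His-GTG, and 3 of them ran 5 or more bases past the first base of Ser-GCT.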

How the results depend on the processing

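With total counts the log2 fold change was 1.53 for SalB against high fat diet and 2.00 for SalB against normal diet, and the other 8 settings gave 2.11 to 2.51 and 2.41 to 2.89. Without 1 library each they ran from 2.06 to 2.67 and from 2.52 to 3.12, and for high fat diet against normal diet from 0.22 to 0.59. With the replicate block, the difference in mean end position between SalB and high fat diet was -1.79 with an exact p of 0.0278, the smallest that 36 partitions within replicate numbers allow, and 0.111 adjusted over the 4 measures, so that alone it could not pass. The labels do not say that a replicate number marks a shared batch, and deviations of same-numbered libraries correlated at over 0.1 in 1 of 9 pairs. Without 1 library, the difference in mean end position ran from -2.19 to -1.35. With each distinct sequence counted once, that difference was -0.46 (adjusted p = 0.0810), and those in the share starting at position 1, in any mismatch and in mismatch away from the last base were -4.10, 7.16 and 13.3 percentage points, each with the opposite sign to the value by reads (0.489, -4.72 and -3.65). The last pair passed, with an adjusted p of 0.00714 each. The difference in mismatch away from the last base passed with 5′ fragments only (-3.93, adjusted p = 0.0429) and without normal diet replicate 3 (-3.65, adjusted p = 0.0429), and without 1 library ran from -3.93 to -3.16. The SalB libraries held more Ser-GCT reads and more distinct sequences than all others, and the cause of these changes was not tested. Scaling on totals of the tested fragments and the other read sets for the ladder were chosen after seeing the data. For ends at 22, the difference without 1 library ran from 6.49 to 9.12. Of Ser-GCT fragments, 44 were called higher with SalB without a filter, 17 with total counts, 13 with the stricter filter (16 tested) and 14 to 22 without 1 library. Of other mitochondrial families, 2 were called with total counts, 2 without a filter, 2 with only the groups compared and 2 to 6 without 1 library. Depth limits the smaller steps of the ladder: ends at 19 rested on 9, 26 and 42 reads in the normal diet libraries.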
